A study of Mus musculus with 10 samples.

Results

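H3K27me3 peaks on mouse chromosome 1 were described in 5 lymphoma lines. Each peak list was searched for its distinct entries on chromosome 1, and 6917 of the 74261 entries summed over the lines lay there. Over all lines these were 6756 of 72632 distinct entries. The chromosome was chosen by the number of its peaks in these same lists, which earlier results showed to be above its share of genes, so that excess is given here as a description. It was then located in fixed bins of 1 Mb and traced to genes.

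All lines came from a B-cell lymphoma of a C57BL/6J mouse and share the genotype Eµ-Myc Cdkn2a-/-. In this model the Myc oncogene is driven by the immunoglobulin heavy chain enhancer in cells of the B lineage, and the Cdkn2a tumour suppressor locus is deleted. Parental cells were never selected with drug. The resistant lines were taken from them at successive steps of a 34-day rise in the dose of mafosfamide, which alkylates DNA, so that they differ in time in culture as well as in dose. The dose was 100 nM for R100, 500 nM for R500, 1000 nM for R1000 and 4000 nM for R4000. Mafosfamide was absent when cells were taken for chromatin immunoprecipitation. There is 1 list per line, the sequencing depth behind each list is unknown, and no difference between lines was tested. In bulk chromatin, fewer cells with the mark and less of the mark per cell cannot be told apart.

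H3K27me3 is a trimethyl group on lysine 27 of histone H3, placed by Polycomb repressive complex 2 (PRC2), whose catalytic subunit is Ezh2. It is known as a mark of silent or poised genes and lies typically over CpG-rich promoters of developmental regulators such as homeobox and Wnt genes, often as broad domains. In B cells, PRC2 is known for repressing genes that act at other stages of differentiation.

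A peak within 2 kb of the transcription start site (TSS) was looked for at 6 B-cell marker genes as a check of the label. It was found at 0 of them in Parental, 2 in R100, 2 in R500, 3 in R1000 and 2 for R4000. Among 4 myeloid markers, 2 had a peak in Parental and 1 had a peak in every other line. Of 4 T-cell markers, 1 had a peak in R100 and in R500 and 0 had one in the remaining lines. Over all protein-coding genes of the genome, 8.31%, 28.2%, 21.4%, 12.6% and 11.1% had such a peak in Parental, R100, R500, R1000 and R4000. Expression was not analysed here, so these markers neither identify nor exclude a cell type. At Cdkn2a itself 0 peaks were listed in every line, which says nothing of the deletion.

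The sequences below come from the widest region present in all 5 lists in each of the 5 bins with the largest excess that held such a region. They are shown because each lies in the widest merged region of its bin to which every list contributed, although a list may cover only part of that region. Each is 300 bases of the plus strand of mm9 from the middle of the region, moved where needed to lie outside annotated untranslated sequence, with CpG dinucleotides in capitals.
Wnt10a, chr1:74850825-74851124, just beyond the 3′ end of the gene: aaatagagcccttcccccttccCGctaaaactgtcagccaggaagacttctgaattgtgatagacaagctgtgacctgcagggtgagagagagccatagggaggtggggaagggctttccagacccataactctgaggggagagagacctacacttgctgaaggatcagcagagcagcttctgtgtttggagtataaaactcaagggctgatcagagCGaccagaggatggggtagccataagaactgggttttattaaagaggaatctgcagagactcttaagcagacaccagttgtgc
Lrrn2, chr1:134777253-134777552, within the gene and with 167 bases in an exon of a non-coding transcript: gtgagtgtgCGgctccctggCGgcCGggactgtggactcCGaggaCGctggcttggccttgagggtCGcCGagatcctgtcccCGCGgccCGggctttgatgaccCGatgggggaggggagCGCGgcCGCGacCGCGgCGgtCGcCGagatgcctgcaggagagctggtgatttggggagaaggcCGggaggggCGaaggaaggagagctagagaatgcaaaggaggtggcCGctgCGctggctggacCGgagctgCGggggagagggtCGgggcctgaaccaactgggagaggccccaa
Rassf5, chr1:133140800-133141099, within the gene and outside exons: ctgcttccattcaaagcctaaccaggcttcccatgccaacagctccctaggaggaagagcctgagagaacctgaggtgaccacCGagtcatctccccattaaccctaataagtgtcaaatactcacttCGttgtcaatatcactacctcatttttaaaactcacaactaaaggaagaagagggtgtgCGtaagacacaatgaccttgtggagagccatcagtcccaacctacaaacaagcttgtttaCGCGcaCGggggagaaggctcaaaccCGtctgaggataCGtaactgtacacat
Upstream of Atf3, chr1:193009225-193009524, outside annotated genes: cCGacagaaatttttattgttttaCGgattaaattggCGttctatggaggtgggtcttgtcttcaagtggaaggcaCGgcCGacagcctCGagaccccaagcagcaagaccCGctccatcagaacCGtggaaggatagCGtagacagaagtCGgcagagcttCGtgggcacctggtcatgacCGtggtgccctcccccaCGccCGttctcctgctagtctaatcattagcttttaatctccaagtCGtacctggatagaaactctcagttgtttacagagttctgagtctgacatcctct
6330403A02Rik, chr1:182412775-182413074, outside exons: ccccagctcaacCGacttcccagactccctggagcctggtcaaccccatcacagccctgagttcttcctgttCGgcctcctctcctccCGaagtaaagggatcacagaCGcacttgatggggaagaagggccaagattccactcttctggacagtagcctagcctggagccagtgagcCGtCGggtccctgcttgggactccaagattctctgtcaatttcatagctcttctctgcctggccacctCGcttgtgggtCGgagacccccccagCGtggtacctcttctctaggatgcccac
The windows differed in base composition. The Lrrn2 window was the richest in CpG, with 27 CpG and 70% GC. The window above Atf3 held 15 CpG at 51% GC, and that of 6330403A02Rik held 9 at 58.7% GC. The window at Rassf5 held 8 CpG at 47.7% GC, whereas that beyond Wnt10a held 2 at 50% GC. The windows beyond Wnt10a and above Atf3 were covered over all 300 bases in every line. The window at Lrrn2 was covered over 300, 300, 300, 150 and 0 bases in Parental, R100, R500, R1000 and R4000, that at Rassf5 over 249, 300, 99, 0 and 99, and that of 6330403A02Rik over 224, 300, 300, 224 and 224. The windows at Lrrn2 and Rassf5 were therefore not covered in every line. The 3950-bp region above Atf3, 182 bp from its TSS, was covered over 3650, 3950, 3950, 3150 and 3400 bp in Parental, R100, R500, R1000 and R4000. Atf3 encodes a stress-induced transcription factor, and its region was covered over at least 3150 of 3950 bp in every line. The 3750-bp region at Lrrn2, a gene for a membrane protein with leucine-rich repeats, was covered over 1300, 3550, 2500, 650 and 350 bp in the same order. It was broad in R100 and R500 and narrow in R1000 and R4000.

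Chromosome 1 held 1156 of 10778 peaks in Parental, 2061 of 25180 in R100, 2107 of 21888 in R500, 849 of 9595 in R1000 and 744 of 6820 for R4000. These are 10.7% (95% Wilson interval 10.2 to 11.3) of peaks in Parental, 8.19% (7.85 to 8.53) in R100, 9.63% (9.24 to 10.02) in R500, 8.85% (8.30 to 9.43) in R1000 and 10.9% (10.2 to 11.7) for R4000. The intervals cover the counting of peaks only. The chromosome carries 1946 of 37273 annotated genes, or 5.22%, and 7.48% of the known bases of the assembly. The share of peaks over the share of genes was 2.05 in Parental, 1.57 in R100, 1.84 in R500, 1.69 in R1000 and 2.09 for R4000. The ratio was therefore highest in Parental and R4000, the lines with the lowest and the highest selection, and lowest in R100, the line with the most peaks. Against the share of known bases, the ratios were 1.43, 1.09, 1.29, 1.18 and 1.46.

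**Figure D1:**
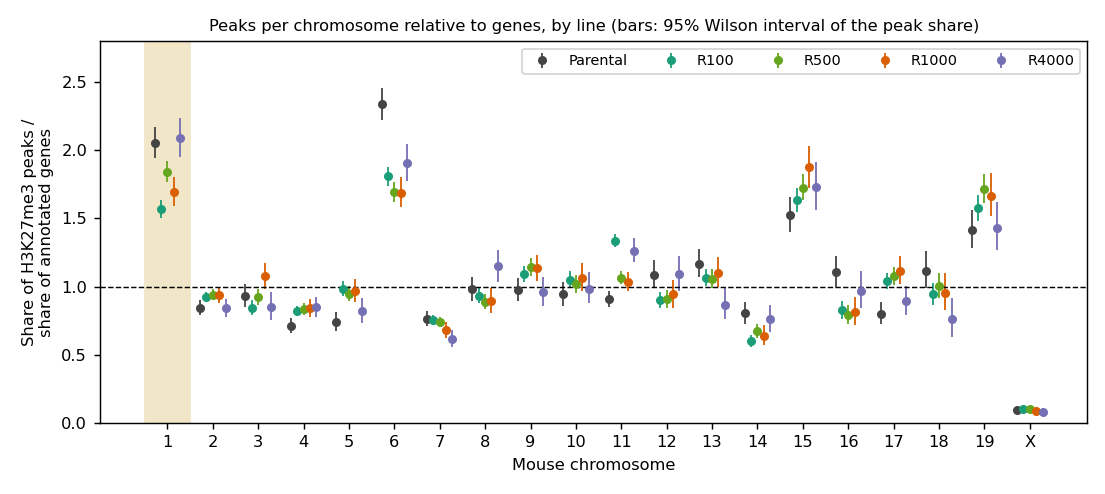
The share of all peaks divided by the share of all annotated genes (y axis, a ratio) for chromosomes 1 to 19 and X (x axis), with 1 point per line and the 95% Wilson interval of the peak share as a bar; the dashed line marks equal shares. Chromosome 1 lay between 1.57 and 2.09, and chromosomes 6, 15 and 19 were also above 1 in every line.

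By this ratio chromosome 1 ranked 2, 4, 1, 2 and 1 among the chromosomes in Parental, R100, R500, R1000 and R4000. Chromosomes 6, 15 and 19 were the others near the top. Chromosome 15 stood at 1.52, 1.63, 1.73, 1.87 and 1.73 and was above chromosome 1 in R100 and R1000, and chromosome 19 stood at 1.42, 1.58, 1.72, 1.67 and 1.43. The ratio of chromosome 6 was 2.34 in Parental, 1.81 in R100, 1.69 in R500, 1.69 in R1000 and 1.91 for R4000. It was above that of chromosome 1 in Parental and R100 and below it in R500 and R4000. The plot of the ratio by chromosome shows that the autosomes did not move together between the lines.

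Counted over the share of genes, peaks far from promoters took the larger part of the excess in most lines. The expectation was 5.22%, the chromosome's share of genes, at every distance, whereas its share of known bases was 7.48%. Far peaks set against known bases would show a smaller excess, so the split by distance depends on this choice. Among peaks over 5 kb from the nearest TSS, chromosome 1 held 13.7% (12.8 to 14.7) in Parental, 9.72% (9.15 to 10.3) in R100, 12.1% (11.4 to 12.8) in R500, 11.2% (10.2 to 12.4) in R1000 and 14.4% (12.9 to 16.1) for R4000. Among peaks within 2 kb of a TSS it held 8.40%, 7.15%, 7.80%, 7.82% and 9.57% in the same order. The share was thus higher among the far peaks in each line. Of the excess peaks of the chromosome, 70.1% in Parental, 59.8% in R100, 63.3% in R500, 53.6% in R1000 and 45.1% for R4000 lay over 5 kb from a TSS. The part within 2 kb was 21.04% in Parental and 44.6% in R4000. Relative to the share of genes, the excess was similar in Parental and R4000, with ratios of 2.05 and 2.09. In number, the excess peaks were 593 in Parental and 388 in R4000. In Parental the excess lay mainly away from TSSs. In R4000 the part within 2 kb was nearly as large as that over 5 kb.

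**Figure D2:**
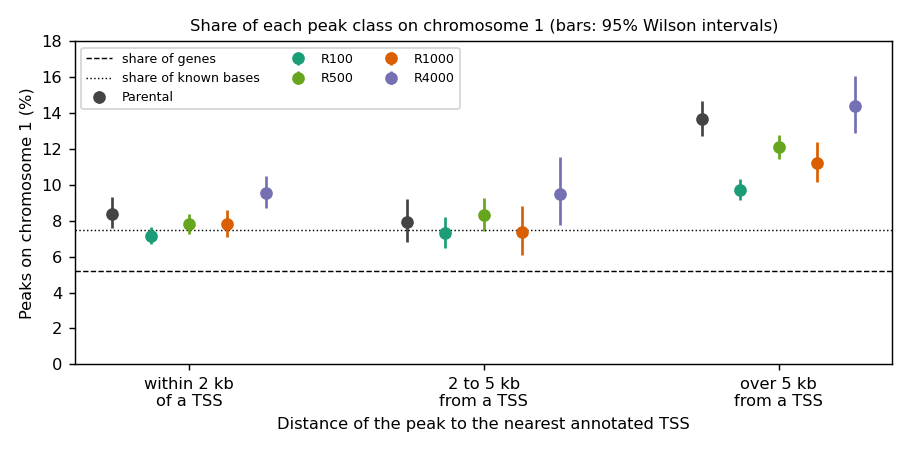
The percent of all peaks of each distance class that lie on chromosome 1 (y axis) by distance to the nearest annotated TSS (x axis), with 1 point per line and 95% Wilson intervals as bars; lines mark the chromosome's share of genes and of known bases. The points over 5 kb from a TSS sit between 9.72% and 14.4%, above those within 2 kb.

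The same counts can also be read within the chromosome. Peaks over 5 kb from a TSS made up 58.1% of the chromosome 1 peaks of Parental, 46.8% in R100, 51.0% in R500, 41.1% in R1000 and 36.8% for R4000. On the other chromosomes they made up 44.1%, 38.7%, 39.4%, 31.6% and 26.8%. Width did not set the chromosome apart, since the median peak was 100 bp wide on and off chromosome 1 in every line. The share of peaks in the body of a protein-coding gene or its upstream 5 kb was 59.8% on chromosome 1 and 66.2% elsewhere in Parental, and 73.9% and 80.1% in R4000.

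Along the chromosome the excess was uneven. In each of the 198 bins of 1 Mb, the share of all peaks less the share of all genes was averaged over the 5 lines. Bins above 0 summed to 6.02 percentage points and bins below 0 to -1.58, which leaves a net 4.44. The 10 bins with the largest mean summed to 2.34 points, 38.9% of the positive excess and 52.8% of the net excess, while holding 217 genes, 11.2% of those on the chromosome. They held 341 of the chromosome's peaks in Parental, 631 in R100, 634 in R500, 257 in R1000 and 230 for R4000, or from 29.5% to 30.9% of them. Each of these bins was above 0 in every line. A total of 53 bins were above 0 in all lines, 95 were below 0 in all lines, and 60 bins with 213 genes held 0 peaks in any line. The bins from 74 to 75, from 133 to 134 and from 193 to 194 Mb stayed among the first 10 under each alternative that kept the bin edges, whereas each of the other 7 left them under at least 1. With peaks of at least 500 bp alone, the bins from 134 to 135, 136 to 137, 163 to 164, 174 to 175 and 182 to 183 Mb left. The last bin taken had a mean of 0.165 points and the next one 0.160.

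More bins were above 0 on chromosome 1 than over the genome, which follows in part from how the chromosome was chosen. It was taken for an excess of peaks over its share of genes, and bins are scored by the same difference. There were 68 such bins in Parental, where 24.4% of all bins of the genome were above 0, 67 in R100 (27.7%), 72 in R500 (27.1%), 73 in R1000 (25.3%) and 72 for R4000 (23.8%). Among the 100 bins of the genome with the largest mean excess, 20 were on chromosome 1, which has 7.43% of all bins. The leading bin of the chromosome ranked 8 in the genome.

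**Figure D3:**
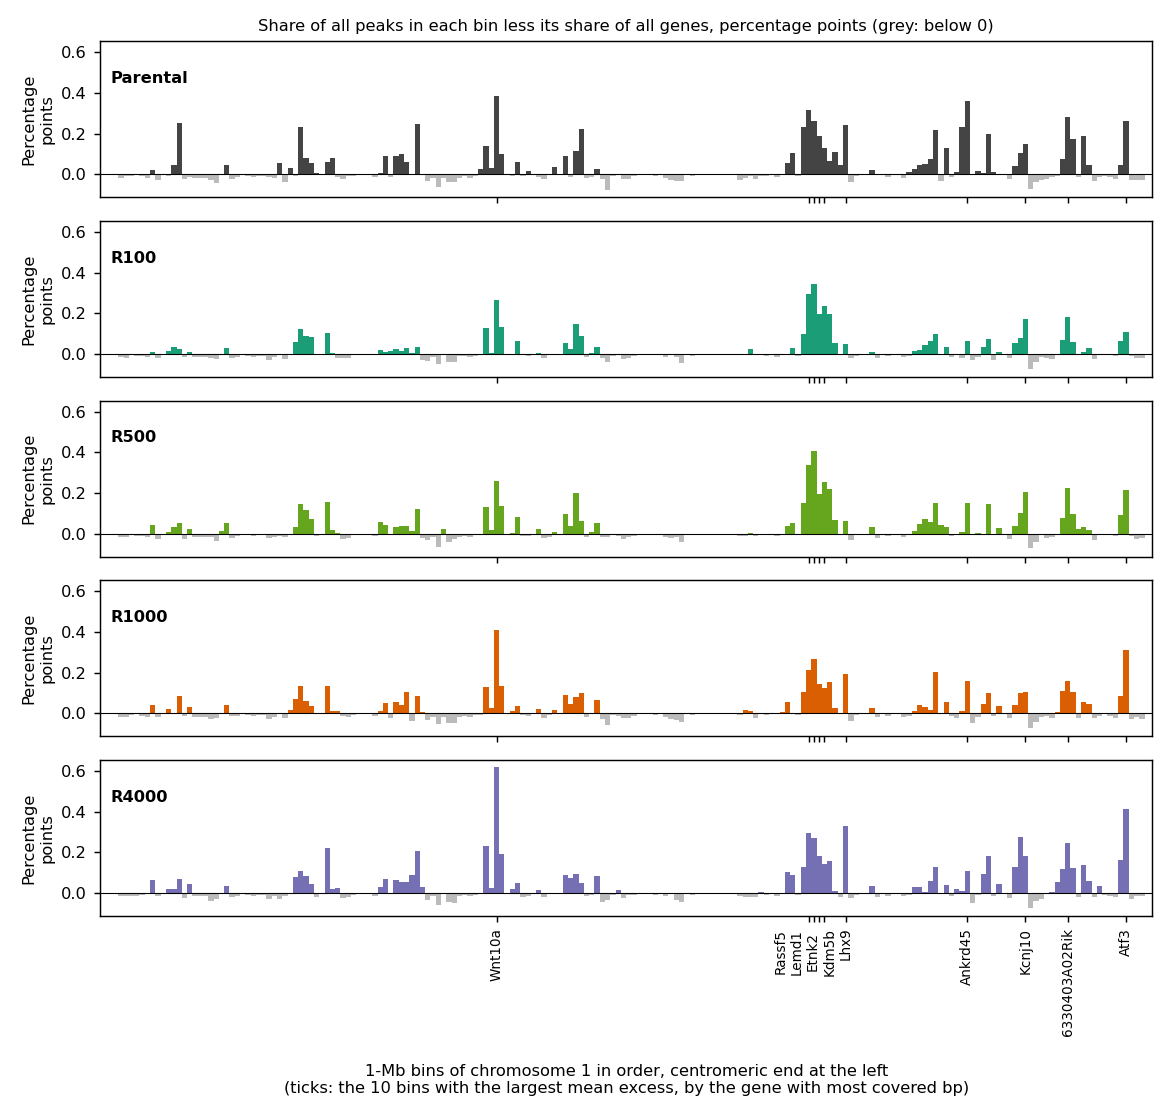
The share of all peaks in a bin less its share of all genes (y axis, percentage points) for the 198 bins of chromosome 1 in order (x axis, 1 Mb each), with 1 panel per line and grey bars below 0. The tallest bar of R100 and of R500 lies in the block labelled Rassf5 to Kdm5b, and the bins labelled Wnt10a, Lhx9 and Atf3 are tallest in R4000.

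Counted in stretches of 10 Mb, the stretch from 130 to 140 Mb led. It held 206, 480, 468, 144 and 117 peaks in Parental, R100, R500, R1000 and R4000, with 173 genes, and gave 30.9% of the net excess. The stretch from 70 to 80 Mb gave 16.8% with 111, 224, 202, 100 and 97 peaks, and that from 180 to 190 Mb gave 11.7%. The peaks of these stretches were 4.12, 3.28 and 3.36 times those expected from their genes in Parental and 3.70, 4.53 and 3.51 times in R4000. By contrast, the stretch from 60 to 70 Mb held 10 peaks in Parental and 9 in R4000 for 128 genes. The stretch from 110 to 120 Mb, with 11 genes, held 0 peaks in every line.

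The leading bin, from 74 to 75 Mb, held the neighbouring genes Wnt10a and Wnt6, which encode secreted ligands of the Wnt pathway. It held 52 peaks in Parental, 92 in R100, 78 in R500, 49 in R1000 and 49 for R4000, against 10.7, 25.0, 21.7, 9.52 and 6.77 expected from its 37 genes. Wnt10a alone (chr1:74838090-74850753, plus strand) had 15, 19, 23, 12 and 16 peaks in its body and the 5 kb upstream. Per kb of that window, the peaks at Wnt10a covered 178, 459, 488, 173 and 142 bp in the same order. The covered length was thus greatest in R100 and R500 and near the Parental value in R1000 and R4000, while the number of peaks changed less. Wnt6 covered 108, 203, 214, 65.1 and 78.7 bp per kb, with the same order of lines at the top. A further 8, 3, 4, 8 and 8 peaks lay between 74851451 and 74873250, outside any protein-coding gene window. This bin held 17 regions covered in all 5 lines, the most of the 10 bins.

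The block from 133 to 137 Mb gave 4 adjoining bins of the 10, and its peaks were most numerous in R100 and R500, the lines with the most peaks over the genome. The bin from 134 to 135 Mb held 34, 100, 101, 31 and 22 peaks for 20 genes, and Lemd1 and Cntn2 had the most covered length in it. Cntn2, which encodes an adhesion protein of axons, covered 16.9 bp per kb in Parental, 147 in R100, 105 in R500, 13.0 in R1000 and 11.7 for R4000. Lemd1, which encodes a protein with a LEM domain, covered 13.4, 64.8, 59.2, 18.3 and 18.3 bp per kb. Both were therefore high in R100 and R500 and low in the 3 remaining lines. In the bin from 133 to 134 Mb, with 40, 89, 86, 26 and 24 peaks, the leading gene was Rassf5, whose product binds Ras and Rap GTPases and acts in lymphocyte adhesion. Rassf5 covered 17.6, 81.9, 79.2, 16.9 and 27.1 bp per kb. Pm20d1, which encodes a secreted enzyme that forms N-acyl amino acids, covered 58.4, 77.3, 68.7, 24.1 and 20.6 bp per kb and was lowest in R1000 and R4000.

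Further along the block, the bin from 135 to 136 Mb held 26, 63, 54, 19 and 16 peaks. Its genes with the most covered length were Etnk2, an ethanolamine kinase gene, and Ppp1r15b, which encodes a regulatory subunit of the phosphatase of eIF2α. Ppp1r15b covered 14.6 bp per kb in Parental, 124 in R100, 128 in R500, 43.9 in R1000 and 73.2 for R4000, so that each resistant line was above Parental. Etnk2 covered 52.8, 85.0, 68.9, 23.0 and 11.5 bp per kb and was lowest in R4000. The bin from 136 to 137 Mb held 21, 76, 70, 18 and 14 peaks. There Kdm5b, which encodes a demethylase of histone H3 lysine 4, covered 24.5, 36.7, 43.8, 24.5 and 9.01 bp per kb, and Syt2, which encodes a calcium sensor of synaptic vesicles, covered 12.3, 48.1, 21.5, 7.16 and 2.05. Outside the windows of protein-coding genes lay 3 of its 21 peaks in Parental, 27 of 76 in R100, 28 of 70 in R500, 6 of 18 in R1000 and 4 of 14 for R4000, so the share was lowest in Parental. The largest group of them, between 136533651 and 136587350, had 3 peaks in Parental, 20 in R100, 22 in R500, 4 in R1000 and 3 for R4000.

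The bin of Lhx9 had another order of lines. The bin from 140 to 141 Mb held 29 peaks in Parental, 19 in R100, 19 in R500, 21 in R1000 and 24 for R4000 for 9 genes, which is 11.1, 3.12, 3.60, 9.06 and 14.6 times the expected number. Lhx9 (chr1:140721763-140745153, minus strand), a LIM homeobox gene active in development, had 18, 10, 11, 20 and 22 of them. Its covered length was 278 bp per kb in Parental, 377 in R100, 393 in R500, 294 in R1000 and 220 for R4000. R100 and R500 therefore had fewer and wider peaks at Lhx9, and R1000 and R4000 had more and narrower ones. The widest region of the chromosome covered in all lines lay in this gene, over 6300 bp, of which 4350, 5850, 5500, 4450 and 3800 bp were covered. Without this bin the share of peaks on chromosome 1 would be 10.5% in Parental and 10.6% in R4000, so the gene alone makes up little of the excess. The bin left the first 10 when peaks within 1000 bp were joined, when known bases set the expectation and without the R4000 list.

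The bin from 193 to 194 Mb held 34, 41, 59, 35 and 32 peaks for 20 genes. At Atf3, 10, 6, 8, 13 and 9 peaks covered 288, 405, 388, 249 and 291 bp per kb in Parental, R100, R500, R1000 and R4000. As at Lhx9, R100 and R500 had the fewest peaks and the greatest covered length. Beyond Atf3, between 193028501 and 193048850, a group outside protein-coding windows held 14, 11, 20, 12 and 9 peaks and overlapped the non-coding gene D730003I15Rik. In this bin 25 of 34 Parental peaks, but 15 of 32 R4000 peaks, lay outside the windows of protein-coding genes.

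Of the remaining bins, that from 182 to 183 Mb held 37, 61, 62, 21 and 21 peaks. The gene 6330403A02Rik had 15, 20, 20, 11 and 6 peaks. Mixl1, a homeobox gene of early endoderm and mesoderm, covered 33.4, 150, 83.4, 94.5 and 16.7 bp per kb and was lowest in R4000. The bin from 163 to 164 Mb was the only one of the 10 with no peak of at least 500 bp in any line, and it held 43, 26, 42, 19 and 10 peaks. It includes Tnfsf4, the gene for the ligand of the receptor OX40, which had 2, 2, 1, 0 and 0 peaks, and Ankrd45, which encodes an ankyrin repeat protein and had 6, 7, 6, 1 and 1. Of its peaks, 29 of 43 in Parental, 12 of 26 in R100, 28 of 42 in R500, 16 of 19 in R1000 and 9 of 10 for R4000 lay outside protein-coding windows, which is the larger part in each line but R100. The bin from 174 to 175 Mb held 25, 64, 63, 18 and 18 peaks, and in it Kcnj10, an inwardly rectifying potassium channel gene, covered 44.9, 97.7, 80.5, 25.3 and 18.5 bp per kb. Vsig8, which encodes a membrane protein with immunoglobulin domains, covered 50.6, 160, 152, 62.4 and 78.0.

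The largest deficit lay beside the last of these bins. From 175 to 176 Mb, 27 genes, among them the cytosolic DNA sensor gene Aim2, had 0 peaks in every line, whereas 7.81, 18.2, 15.9, 6.95 and 4.94 were expected. The bins from 63 to 64 Mb, with 1, 6, 2, 2 and 1 peaks for 27 genes, and from 95 to 96 Mb, with 0, 10, 13, 2 and 3 peaks for 29 genes, followed. In addition, 3 families of clustered genes held no peak at all on this chromosome. All 28 olfactory receptor genes, 11 Serpinb protease inhibitor genes and 8 genes of the Ifi200 family, which respond to interferon, were without a peak in every line. Of all 1238 protein-coding genes of the chromosome, 553 were without one.

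The excess was concentrated in part of the genes, counted with the same expectation for each gene whatever its length. The 10 protein-coding genes with the most peaks were Lhx9, Wnt10a, Cdc42bpa, Trpm8, 6330403A02Rik, Accn4, Lhx4, Enah, Rassf5 and Neu2. They held 12.5% of chromosome 1 peaks in Parental, 8.64% in R100, 9.49% in R500, 12.8% in R1000 and 13.3% for R4000. Less the peaks expected for 10 genes, this was 23.8%, 22.9%, 20.1%, 30.6% and 25.0% of the net excess. The first 50 genes gave 60.8%, 61.9%, 53.9%, 82.2% and 60.8% of it, and the first 100 gave from 75.5% in R500 to 111% in R1000, a share over 100 because other genes had fewer peaks than expected. Of the 100 genes of the genome with the most peaks, 13 were on chromosome 1, which has 5.53% of protein-coding genes. The genes were ranked on these same peaks, so the shares describe how concentrated the peaks were.

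**Figure D4:**
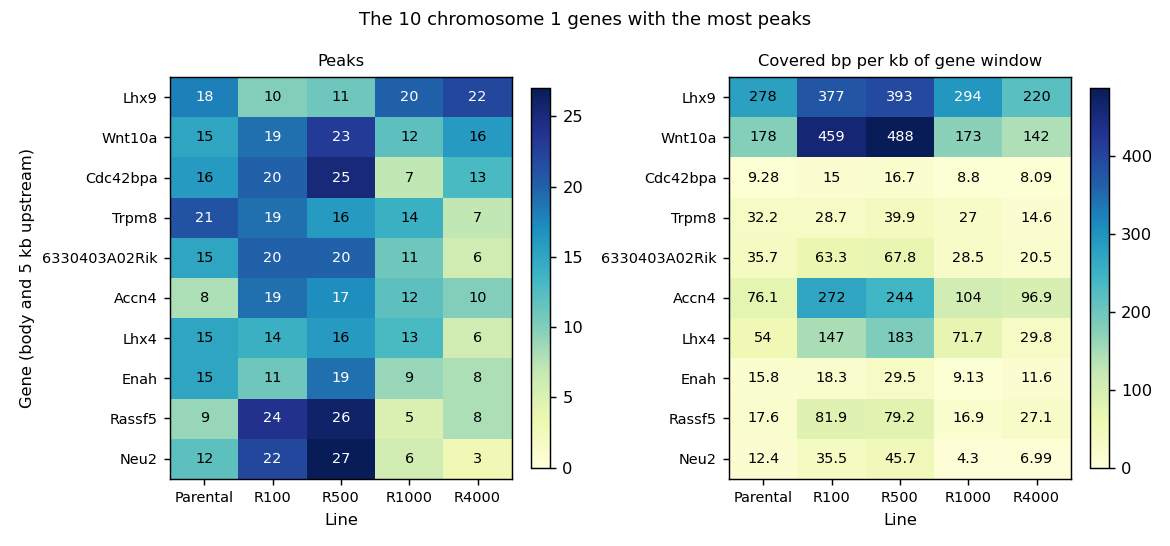
Peaks (left panel, number) and covered length per kb of gene window (right panel, bp per kb) for the 10 chromosome 1 genes with the most peaks (rows) in the 5 lines (columns), the window being the gene body and 5 kb upstream. Wnt10a reaches 488 bp per kb in R500, while Cdc42bpa, a long gene, stays at or under 16.7.

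Per length, these genes fell apart. The highest covered length in Parental was 278 bp per kb at Lhx9, and the lowest was 9.28 at Cdc42bpa, which encodes a kinase acting downstream of Cdc42 and is 205132 bp long. Accn4, a gene of the acid-sensing ion channel family, covered 76.1, 272, 244, 104 and 96.9 bp per kb in Parental, R100, R500, R1000 and R4000, and each resistant line was above Parental. Lhx4, a LIM homeobox gene of pituitary and motor neuron development, covered 54.0, 147, 183, 71.7 and 29.8, and R4000 was the lowest. Trpm8, which encodes the cold-sensing channel of sensory neurons, covered 32.2, 28.7, 39.9, 27.01 and 14.6, and Enah, which encodes an actin regulator, covered 15.8, 18.3, 29.5, 9.13 and 11.6. Neu2, a sialidase gene whose window overlaps Ngef, covered 12.4, 35.5, 45.7, 4.30 and 6.99. Of the 10 genes, Accn4 and Rassf5 were above Parental in R4000 and the other 8 were below it.

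More genes of the chromosome carried at least 1 peak than elsewhere. Counting every annotated gene, 284 of 1946 had a peak in Parental, where 9.73% of all genes of the genome did, 676 in R100 (25%), 578 in R500 (20.2%), 328 in R1000 (12%) and 360 for R4000 (10.4%). When at least 150 bp had to be covered in the 5 kb upstream, 104, 204, 190, 101 and 83 genes remained. Of the 1238 protein-coding genes, 227 had a peak in Parental, which is 18.3% (16.3 to 20.6), against 12.9% over the genome. The share was 46.1% (43.4 to 48.9) in R100 against 34.3%, 39.2% (36.5 to 41.9) in R500 against 27.2%, 22.1% (19.8 to 24.4) in R1000 against 16.1%, and 24.5% (22.2 to 26.9) in R4000 against 14%. In total 125 of them had a peak in all lines and 553 had none in any line.

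**Figure D5:**
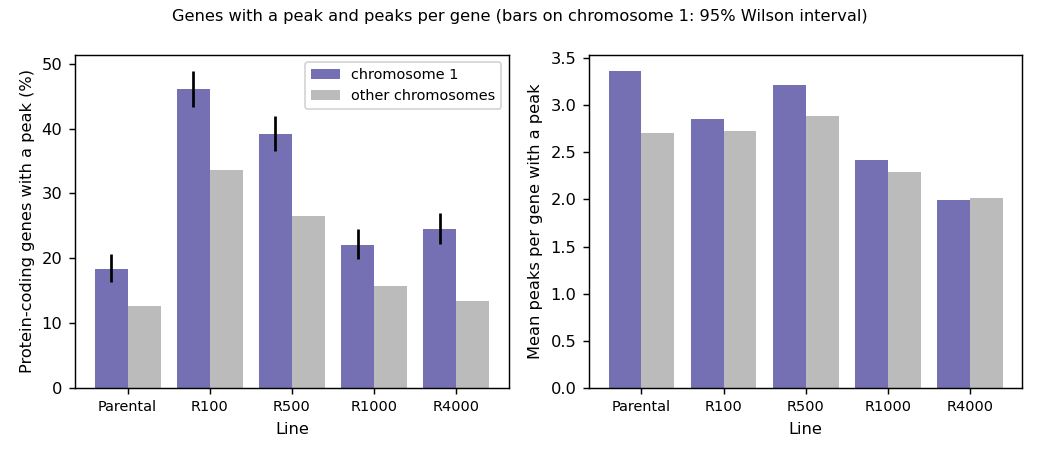
Percent of protein-coding genes with a peak (left panel) and mean number of peaks per gene with a peak (right panel) on chromosome 1 and on the other chromosomes in the 5 lines; bars on chromosome 1 at the left are 95% Wilson intervals. In Parental both panels are higher on chromosome 1, and in R4000 only the percent of genes is.

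Parental and R4000 had a similar ratio of peak share to gene share but differed in how the excess was built. Genes with a peak on chromosome 1 had a mean of 3.37 peaks in Parental, 2.86 in R100, 3.21 in R500, 2.42 in R1000 and 1.99 for R4000. On the other chromosomes the means were 2.70, 2.73, 2.89, 2.29 and 2.02. In Parental, then, chromosome 1 had both more genes with a peak and more peaks per gene, and in R4000 it had more genes with about the same number of peaks each. Genes with a peak were not confined to a single part of the chromosome, but their share varied along it. In Parental it was 33.3% from 130 to 140 Mb and 0% from 100 to 110 Mb. The share of genes with a peak was above that of the other chromosomes in 11 of 20 stretches of 10 Mb in Parental, 16 in R100, 14 in R500, 12 in R1000 and 16 for R4000. Within 2 kb of the TSS, 137 protein-coding genes had a peak in Parental (8.31% over the genome), 460 in R100 (28.2%), 379 in R500 (21.4%), 216 in R1000 (12.6%) and 245 for R4000 (11.1%).

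Genes that had a peak in a resistant line but not in Parental numbered 364 in R100, or 29.4% of those on the chromosome against 22.8% over the genome. In R500 they numbered 274, or 22.1% against 16%. In R1000 there were 115, or 9.29% against 7.04%. R4000 had 158 such genes, 12.8% (11.02 to 14.7) against 6.12%, the widest gap in relative terms, and its share was above that of the other chromosomes in 17 of 20 stretches. Genes that had a peak in Parental and none in the resistant line were fewer. They numbered 20 in R100 (1.44% over the genome), 16 in R500 (1.66%), 69 in R1000 (3.84%) and 82 for R4000 (5.06%), the last being 6.62% of the genes on chromosome 1. These comparisons share the Parental list.

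The largest gains in covered length from Parental to R100 were at Accn4, from 2200 to 7850 bp, Cntn2, from 650 to 5650 bp, Wnt10a, from 3153 to 8103 bp, Rassf5, from 1300 to 6050 bp, and Lhx4, from 2450 to 6650 bp. All 5 had peaks in Parental already. To R4000 the largest gains were smaller and lay at other genes. Kif26b, a kinesin family gene, went from 50 to 950 bp, and Atp1b1, which encodes the beta subunit of the sodium-potassium pump, went from 0 to 850 bp. Ptma, the gene of the nuclear protein prothymosin alpha, went from 550 to 1400 bp, Hnrnpu, the gene of an RNA-binding nuclear protein, from 300 to 1100 bp, and Ppp1r15b from 200 to 1000 bp. All 5 of these genes were also above Parental in R100, R500 and R1000. In R100 and R500, Kif26b covered 2650 and 2500 bp, Ptma 1850 and 1750 bp, and Ppp1r15b 1700 and 1750 bp. These 3 genes thus covered more there than in R4000. Atp1b1 covered 700 and 950 bp and Hnrnpu 1050 and 1000 bp in R100 and R500.

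The largest falls to R100 were at Eya1, Rabgap1l, Als2cr11, Gm17570 and F11r. Eya1, which encodes a transcriptional coactivator of organ development, went from 2700 bp in Parental to 1000 in R100, 1500 in R500, 1450 in R1000 and 550 for R4000. Rabgap1l, which encodes a GTPase-activating protein for Rab GTPases, went from 2219 bp to 700, 1250, 400 and 250 bp. F11r, the gene of a junctional adhesion molecule, went from 2050 to 1300 bp in R100 but had 2100 bp in R500. To R4000 the largest falls were at Trpm8, Eya1, Rabgap1l, Lhx9 and Rasal2, and Rasal2, a Ras GTPase-activating gene, went from 2050 to 400 bp. Eya1 and Rabgap1l were thus below Parental in each resistant line, including R100 and R500, whose lists are the longest.

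Lists of genes by role, drawn up with earlier results of these data known, showed where the leading genes belong. Of 33 developmental transcription factor genes, 9 had a peak in Parental, 19 in R100, 16 in R500, 8 in R1000 and 8 for R4000. These are 27.3%, 57.6%, 48.5%, 24.2% and 24.2%, beside 18.3%, 46.1%, 39.2%, 22.1% and 24.5% of all protein-coding genes of the chromosome, so that in R1000 and R4000 the list stood near that background. The median covered length was 0 bp in each line but R100, where it was 100 bp, and over all protein-coding genes of the chromosome it was 0 bp in each line. Pax3, a regulator of neural crest and muscle, covered 11.9, 41.6, 61.5, 9.91 and 2.48 bp per kb. Among 26 genes of secreted signals and their receptors, 17, 22, 19, 13 and 11 had a peak, which are 65.4%, 84.6%, 73.1%, 50% and 42.3% and above the same background in each line. The list also holds the intracellular genes Rgs7 and Stk36, and Nav1 under 2 identifiers. Their median covered length was 100 bp in Parental, 614 in R100, 550 in R500, 25 in R1000 and 0 for R4000. Igfbp2, which encodes a binding protein of insulin-like growth factors, covered 34.9, 120, 127, 33.4 and 30.3 bp per kb, and Bmpr2, a receptor gene of bone morphogenetic proteins, covered 22.9, 22.0, 29.7, 16.2 and 17.1. The signal genes were the list with the highest share of genes with a peak in Parental among the 5 roles named here. This list holds Wnt10a, Wnt6 and Cntn2, which are leading genes named above, and the shares are not adjusted for gene length.

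Of 20 ion channel and pump genes, 6, 13, 10, 7 and 7 had a peak, or 30%, 65%, 50%, 35% and 35%. Over all protein-coding genes of the chromosome the shares were 18.3%, 46.1%, 39.2%, 22.1% and 24.5%. The channel list holds Kcnb2 under 2 identifiers, and its median covered length was 0, 200, 50, 0 and 0 bp. Of 63 genes of immune receptors, cytokines and lymphocyte signalling, 12 had a peak in Parental, 27 in R100, 20 in R500, 9 in R1000 and 13 for R4000, and 31 had none in any line. The shares were 19.0%, 42.9%, 31.7%, 14.3% and 20.6%, below those of all protein-coding genes in each resistant line and close to them in Parental. Their median covered length was 0 bp in every line. The 31 without a peak stand beside 553 of all 1238 protein-coding genes of the chromosome. Il10, the gene of an inhibitory cytokine, covered 114, 188, 336, 123 and 69.1 bp per kb. Fcgr3, a gene of a low-affinity Fc receptor, covered 18.6, 58.6, 45.3, 26.6 and 18.6 bp per kb and so had the same value in Parental and R4000. Cxcr4, a chemokine receptor gene of B-cell homing, had 0 peaks in Parental and covered 88.0, 77.0, 49.5 and 77.0 bp per kb in the resistant lines. Of 29 cell cycle and DNA replication genes, 7, 17, 14, 10 and 11 had a peak, or 24.1%, 58.6%, 48.3%, 34.5% and 37.9%, with Cdc73 under 2 identifiers, and the median covered length was 100 bp in R100 and 0 bp in the remaining lines. The list is broad and also holds genes with other main roles, such as Ppp1r15b, Ccnt2, Cops8 and Stk17b. Cdk18, a cyclin-dependent kinase gene, covered 20.9, 61.02, 53.0, 12.8 and 6.42 bp per kb and was below Parental in R1000 and R4000. Cdc73, a gene of the Paf1 transcription complex, covered 1.83, 5.96, 4.12, 3.67 and 4.58. Btg2, an antiproliferative gene, covered 5.59, 89.4, 89.4, 39.1 and 16.8 bp per kb. The count was above Parental in each resistant line, as it was over all protein-coding genes of the chromosome, where it was 227, 571, 485, 273 and 303.

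When the lists were merged over lines, chromosome 1 held 4487 of 47264 regions. Of these, 169 were covered in all 5 lines, 3.77% (3.25 to 4.36) against 3.53% (3.36 to 3.71) of regions elsewhere. Shared regions thus made up a similar part on and off the chromosome. Of all regions covered in the 5 lines, 10.1% (8.72 to 11.6) lay on chromosome 1, beside 5.22% of genes. Regions of Parental alone numbered 624, 13.9% (12.9 to 14.95) against 10.2% (9.87 to 10.4) elsewhere, and regions of R4000 alone numbered 238, 5.30% (4.69 to 6.00) against 3.92% (3.74 to 4.10). Parental peaks of chromosome 1 were found again, by at least 1 bp, in 34.4% (31.7 to 37.2) of cases in R100, against 42.9% (41.9 to 43.9) of those on other chromosomes. In R500 the shares were 38.3% (35.6 to 41.2) and 44.1% (43.1 to 45.1), in R1000 they were 22.1% (19.8 to 24.6) and 27.6% (26.7 to 28.5), and in R4000 they were 18.4% (16.3 to 20.8) and 19.7% (18.9 to 20.5). The share was lower on chromosome 1 in each line, and the intervals of R4000 overlapped. Several peaks can lie in the same gene and are not independent. The intervals may therefore be too narrow, and no test was read from them.

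Over all peaks together, the sequence under them was poorer in CpG on chromosome 1. More of its peaks lay over 5 kb from a TSS, and composition was not compared within classes of distance. In 500-bp windows at its peaks the median GC was 45.6% in Parental, 51.2% in R100, 49.2% in R500, 49.6% in R1000 and 50.6% for R4000, against 47.8%, 52.8%, 51.4%, 51.6% and 53.8% on the other chromosomes. CpG per kb was 18.4, 30.2, 26.0, 29.5 and 35.9 on chromosome 1 and 24.2, 35.1, 32.0, 35.8 and 42.9 elsewhere. All of these were above the 41.1% GC and 7.69 CpG per kb of the whole chromosome. The 10 leading bins had a median of 46.1% GC and 11.7 CpG per kb, against 40.6% and 7.32 in the other bins, though the bin of Lhx9 had 40.1% GC. Across 194 bins with known sequence, the mean excess had a Spearman correlation of 0.42 with GC and 0.45 with CpG density, given as a description, since neighbouring bins share genes and base composition.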

How the data were processed

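H3K27me3 was measured by ChIP-seq in 5 lymphoma lines. Per the labels and the study's methods, chromatin was precipitated with an antibody to H3K27me3, and the peak caller tested read counts over input window by window with a Poisson model. The submitters' processing notes name Bowtie and mm9. The threshold of the lists and whether replicates were pooled are not given in the sources used here. The authors deposited 1 list per line with 3 columns (chromosome, start and end), so the values are positions in base pairs, without count, score or p-value, and the depth is unknown. All positions fell within NCBIM37 (mm9) chromosome lengths. The lists of R100 and R500 hold each entry 2 times, and distinct entries were used. RRBS and whole-genome sequencing of the lines are not analysed here.

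Peaks were placed by midpoint and genes by TSS (37273 genes of the NCBIM37 annotation). Expected peaks in a bin are the line's total times the bin's share of genes. A gene had a peak if 1 overlapped its body or the 5 kb upstream, and overlapping genes share peaks. Regions were merged at an overlap of at least 1 bp. Python 3.11.15, numpy 2.4.6, pandas 2.3.3, scipy 1.17.1, pysam 0.24.0 and matplotlib 3.10.9 were used. Overlaps were tested on simulated data, and 0 of 1000 intervals differed from a base-by-base count.

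Members and lists were chosen with earlier results of these data known. Named were the 10 bins with the largest excess and the 3 with the largest deficit, the 2 genes with most covered length in each of the 10, the 10 genes with most peaks, the 5 largest gains and falls in R100 and R4000, and 2 to 4 list members of most covered length. Lrrn2 and D730003I15Rik were named because regions shown lie there, and Aim2 as a member of the Ifi200 list. Lists hold the chromosome's protein-coding entries. The alternatives concerned peak width and joining, the gene set, autosomes, known bases, covered length, bin edges, gene windows and the lines averaged.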

Additional observations from a re-analysis of the deposited data

How the results depend on the processing

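The ratio of the peak share to the gene share on chromosome 1 stayed above 1 in each line under every alternative run. Peaks of at least 500 bp gave 1.92 in Parental, 1.74 in R500, 1.81 in R1000 and 1.74 in R4000. Joining peaks within 1000 bp gave 1.95 in R500. With protein-coding genes it was 1.94 in Parental, 1.48 in R100 and 1.74 in R500, and with autosomes only it was 1.92, 1.47, 1.73 and 1.59 in Parental, R100, R500 and R1000. Against known bases it was 1.43, 1.09, 1.29, 1.18 and 1.46 in Parental, R100, R500, R1000 and R4000. The 10 leading bins held 55.3% of the positive excess with peaks of at least 500 bp, 36.2% with joined peaks, 44.6% with bins shifted by 500 kb, 47.6% with covered length and 41.2% with known bases. Of those 10 bins, 5 stayed among the first 10 with peaks of at least 500 bp, and from 8 to 10 stayed when each line was left out in turn. Genes with a peak numbered 174 in Parental within 2 kb of the TSS, and 104, 204, 190, 101 and 83 in the 5 lines with at least 150 bp covered upstream. In all, 29 values moved by more than their counting interval or by over 1.5 times and 32 did not, and the cause was not tested. No paired analysis was possible because there is 1 list per line.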

Other observations

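Some gene clusters of chromosome 1 are not described above. The 9 Ugt1a genes, which encode enzymes that glucuronidate bilirubin and drugs, share exons and overlap, so that 1 peak counts for several of them. All 9 had a peak in Parental, R100 and R500, 0 had one in R1000 and 1 had one in R4000. Ugt1a7c had 4, 3, 1, 0 and 0 peaks in Parental, R100, R500, R1000 and R4000. In the Sp100 cluster of nuclear body genes, Sp110 covered 35.3, 44.6, 63.2, 24.1 and 20.4 bp per kb, whereas Sp100 had 0 peaks in every line. Ptprc, which encodes the pan-leukocyte protein CD45, had 0 peaks in each line but R4000, where it had 1.

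Among 8 symbols with the prefix of ribosomal protein genes, which include pseudogene names and the kinase gene Rps6kc1, 2 had a peak in Parental, 5 in R100, 5 in R500, 4 in R1000 and 3 for R4000. These are 25%, 62.5%, 62.5%, 50% and 37.5%, beside 18.3%, 46.1%, 39.2%, 22.1% and 24.5% of all protein-coding genes of the chromosome. Rpl31 covered 33.1, 93.8, 155, 99.4 and 33.1 bp per kb. Rpl37a had 0 peaks in Parental and covered 79.5, 46.4, 59.6 and 33.1 bp per kb in the resistant lines.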
